A study of Homo sapiens with 6 samples.

Results

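Zinc handling in the human colorectal adenocarcinoma line DLD-1 was followed through 8 genes: the metallothioneins MT1E, MT1F, MT1G, MT1M, MT1X and MT2A, the zinc exporter SLC30A1 and the zinc-sensing transcription factor MTF1. The 8 genes were found by symbol among 58051 genes of the count table, of which 16974 were tested. The metallothioneins and MTF1 were listed for their role, though with earlier results of these data known. SLC30A1 was chosen by its auxin log2 fold change and normalised counts in these same libraries, so its response to auxin is described here and not tested. Of the 8 genes, 6 passed the filter on low counts (CPM, the read count scaled to a common library size, above 1 in at least 3 of the 6 libraries), and MT1G and MT1M did not.

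Metallothioneins are small proteins rich in cysteine that bind zinc and copper and buffer the free metal in the cytoplasm. MTF1 binds zinc through its zinc fingers and then switches on genes that carry metal response elements in their promoters, among them the metallothionein genes and SLC30A1. SLC30A1, also called ZnT1, sits mainly in the plasma membrane and moves zinc out of the cell, so that storage and export answer to the same sensor. Metallothionein genes are also known to answer to glucocorticoids and to oxidative stress, and intestinal epithelium is a tissue in which dietary zinc is taken up and passed on.

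All 6 libraries came from AID-NeonGreen-TPR cells, in which both copies of TPR, a nucleoporin of the nuclear basket, were tagged with NeonGreen and an auxin-inducible degron (AID), a sequence that lets auxin trigger destruction, and in which the TIR1 ligase was expressed from the RCC1 locus. Clones of the edited line were genotyped by PCR. All cultures received 200 nM Leptomycin B (LMB), an inhibitor of the export receptor CRM1, for 3 h by their incubation label, although the titles read 2 h. The LMB group (3 libraries) received nothing else, and the LMB+auxin group (3 libraries) also received 1 mM auxin for the last 2 h, which triggers loss of TPR. Neither LMB-free libraries nor libraries with auxin alone were analysed here, so a response to LMB, or to auxin apart from TPR, cannot be told apart from what is given below. Total counts ran from 28261903 to 35992425 per library. Summed CPM of 10 colon epithelial markers ran from 7509 to 8114, led by the keratins KRT8 and KRT18, whereas 5 fibroblast markers summed to 0.606 to 1.19 CPM, 5 leukocyte markers to 4.15 to 6.88 CPM and 3 endothelial markers to 2.83 to 5.64 CPM. Of the colon markers, the transcription factor CDX1 was listed at no more than 0.0105 CPM on average in either group.

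The promoters are shown first, because MTF1 acts through the metal response element, whose core is TGCACNC or TGCGCNC. Both cores were searched on both strands in the 250 bases before the annotated start of each gene, in RefSeq promoter sequences of GRCh38.p14. Of the 8 genes, 4 were matched in that collection (MT2A, MT1X, SLC30A1 and MTF1). The strand of the gene is printed 5′ to 3′ for the 3 matched genes that held a core, with the cores in capitals. MT2A lies at chr16:56608334-56608583 and MT1X at chr16:56682220-56682469, both on the plus strand, and SLC30A1 at chr1:211579162-211579411 on the minus strand.
MT2A: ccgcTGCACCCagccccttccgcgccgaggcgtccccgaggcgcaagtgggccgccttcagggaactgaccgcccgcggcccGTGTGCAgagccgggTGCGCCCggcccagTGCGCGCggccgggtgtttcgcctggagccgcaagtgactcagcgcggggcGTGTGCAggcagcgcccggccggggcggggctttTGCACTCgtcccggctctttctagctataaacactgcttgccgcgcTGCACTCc
MT1X: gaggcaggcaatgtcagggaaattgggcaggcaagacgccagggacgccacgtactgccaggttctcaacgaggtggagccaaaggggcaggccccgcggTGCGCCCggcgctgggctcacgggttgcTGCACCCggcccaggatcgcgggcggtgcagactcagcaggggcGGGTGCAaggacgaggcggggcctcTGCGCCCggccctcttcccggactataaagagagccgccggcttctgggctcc
SLC30A1: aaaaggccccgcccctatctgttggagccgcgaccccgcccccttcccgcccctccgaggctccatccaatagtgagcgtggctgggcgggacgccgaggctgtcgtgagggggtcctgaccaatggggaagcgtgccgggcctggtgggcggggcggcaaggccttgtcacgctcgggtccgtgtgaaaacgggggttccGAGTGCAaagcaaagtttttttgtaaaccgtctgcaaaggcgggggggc

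The MT2A promoter held 7 cores, a number reached by 0.0313% of the 35116 promoters in the collection. MT1X held 4 cores, a number reached by 0.370% of them. SLC30A1 held 1 core, on the opposite strand at 49 to 43 bases before the start, and 24.8% of all promoters held at least 1. MTF1 held none. A TATA box (TATAAA, on the strand of the gene) began 29 bases before the start of MT2A and 30 bases before that of MT1X, and was found in 6.80% of all promoters. It was not found in the windows of SLC30A1 and MTF1. The GC box GGGCGG stood in all 4 windows and in 42.6% of all promoters. TGACNNNGC, the core of the antioxidant response element, stood in MT2A, MT1X and SLC30A1 and in 10.9% of all promoters. A match is a run of letters in this window and not a measured binding site.

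**Figure D1:**
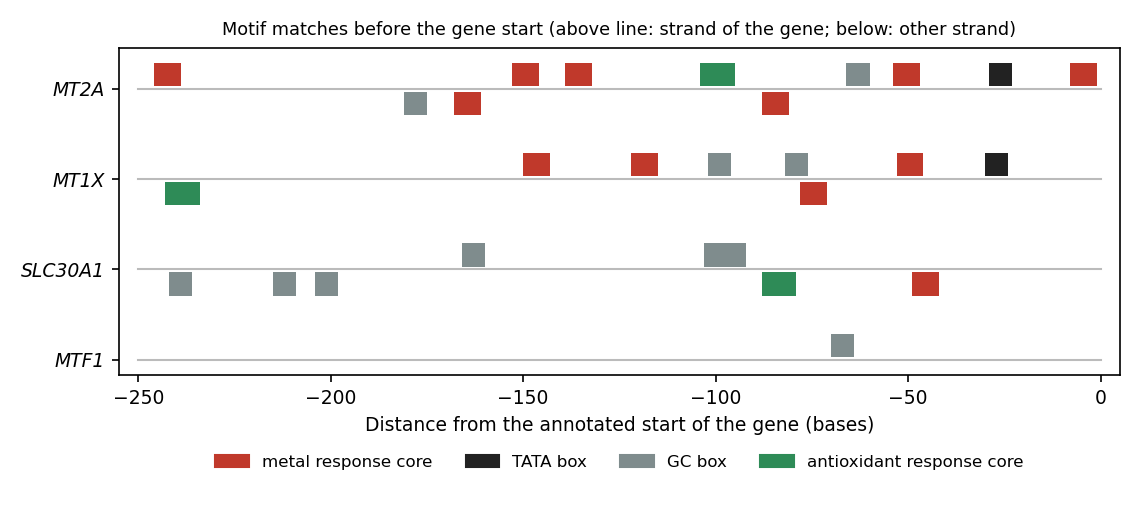
Motif matches in the 250 bases before the start of MT2A, MT1X, SLC30A1 and MTF1. The horizontal axis is the distance from the annotated start in bases, and blocks above each line are on the strand of the gene. Metal response cores are many in MT2A (7) and MT1X (4), single in SLC30A1 and absent from the MTF1 window.

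The 6 metallothionein members lie in 1 cluster on chromosome 16 of GRCh38. MT2A is at 56608584 to 56609497, MT1E at 56625475 to 56627112, MT1M at 56632659 to 56633981, MT1F at 56657731 to 56660698 and MT1X at 56682470 to 56684196, all on the plus strand, and MT1G is at 56666730 to 56668065 on the minus strand. Both other genes are read from the minus strand of chromosome 1, SLC30A1 with 2 exons at 211571568 to 211579161 and MTF1 with 11 exons at 37809574 to 37859592. No stretch as long as 1 sequencing read was shared between a transcript of a member and that of another gene, except in MT1X, where 11.6% of such stretches also occurred in the long non-coding RNA ENSG00000259827. That gene starts at the same base as MT1X on the same strand and shares 321 exonic bases with it. Its CPM was 12.1, 15.9 and 15.3 in LMB and 13.0, 15.6 and 13.6 in LMB+auxin, so the level of MT1X is uncertain by the reads that both genes can claim. At 50 bases, the metallothioneins shared between 1.24% (MT1F) and 18.7% (MT1X) of their stretches with other genes, other metallothioneins among them, and SLC30A1 shared none.

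Per length, the metallothioneins formed a clear order. Levels between genes are given in TPM, in which counts are divided by length before they are scaled to a common total, from the counts and the length of 1 representative transcript of each gene. MT1E stood at 259 ± 30.5 TPM in LMB and 262 ± 31.4 TPM in LMB+auxin (SD, n = 3 each). MT2A followed at 207 ± 27.4 and 195 ± 13.9 TPM. The ranges of mean ± SD of these 2 genes overlapped in LMB and not in LMB+auxin. MT1X came next with 88.5 ± 10.8 and 90.0 ± 1.56 TPM. MT1F at 15.1 ± 0.860 and 13.0 ± 3.45 TPM and SLC30A1 at 13.6 ± 1.06 and 10.4 ± 1.51 TPM were neighbours whose levels did not differ beyond their spread. By transcript length MTF1 was the lowest of the tested members, at 3.07 ± 0.248 and 3.26 ± 0.355 TPM. With all exonic bases as the length, MT2A stood at 130 TPM, MT1X at 29.7 TPM and MT1F at 4.96 TPM in LMB and SLC30A1 at 19.5 TPM, which places SLC30A1 above MT1F. In LMB+auxin that length gave 4.33 TPM for MT1F and 4.71 TPM for MTF1, so that MT1F was then the lowest.

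MT1G and MT1M were near 0 in every library. MT1G had 1 count in LMB+auxin replicate 1 and none in the other 5 libraries, and MT1M had 1 count in LMB replicate 3 and none elsewhere. A count of 0 allows up to 3 counts, or 0.0834 to 0.106 CPM depending on the library (a one-sided 95% limit, counting error only). The 6 other metallothionein genes (MT1A, MT1B, MT1H, MT1HL1, MT3 and MT4) and 9 metallothionein pseudogenes also had at most 6 counts in any library, and none of these 15 genes was tested. Apart from these single counts, the counts of the 6 metallothionein members came from 4 genes.

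Together the 6 metallothionein members took 0.0189% to 0.0223% of all counts. Their summed CPM was 189.3, 194.4 and 222.7 in LMB and 197.3, 194.2 and 198.2 in LMB+auxin. LMB replicate 3 was the highest library and the groups overlapped. The mean was 202 ± 18 CPM (SD, n = 3) without auxin and 197 ± 2.10 CPM (SD, n = 3) with it. MT1E supplied 43.6% to 49.6% of metallothionein TPM, MT2A 33.4% to 37.4%, MT1X 13.9% to 17.5% and MT1F 1.54% to 3.05%, so the order of the 4 genes was the same in all 6 libraries.

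**Figure D2:**
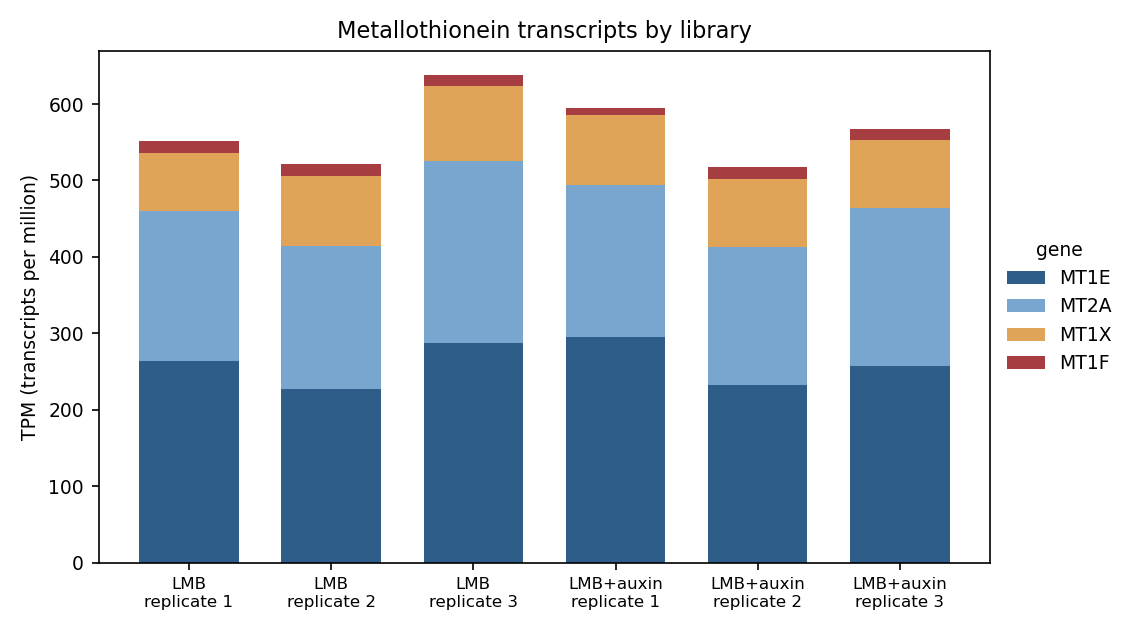
Metallothionein transcripts in each of the 6 libraries, in TPM, stacked by gene. MT1E and MT2A make up most of every bar, and the bars of both groups lie between 518 and 638 TPM.

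The auxin contrast asks whether loss of TPR under LMB changed these genes. Across all 16974 tested genes, edgeR called 1 gene (0.00589%) by the thresholds of an adjusted p under 0.05 and a change of at least 1.3-fold in either direction. The labels give replicate numbers only, and libraries of the same number were taken as pairs. With the replicate number as a block 201 genes (1.18%) were called, of which 150 were lower and 51 higher in LMB+auxin. None of the 5 tested members other than SLC30A1 was called in either fit, by DESeq2 with or without the block or by limma-voom. For MT1F, DESeq2 with the block gave no adjusted p. Unadjusted p was under 0.05 for 0 of the 5 in either edgeR fit. Among all tested genes 4.37% had such a p in the unblocked fit and 19.9% in the blocked fit, and the counts of the gene lists below are to be read against it. The log2 fold changes below are LMB+auxin over LMB. Because RNA was taken from whole cultures, fewer cells expressing a gene and less RNA per cell cannot be told apart.

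SLC30A1, the exporter, had 48.4, 50.1 and 54.2 CPM in LMB replicates 1 to 3 and 34.5, 35.7 and 44.2 CPM in LMB+auxin replicates 1 to 3. All LMB+auxin libraries lay below all LMB libraries, with replicate 3 the highest of both groups. Of all tested genes, 1125 (6.63%) showed this separation downward, and 830 (4.89%) the separation upward. Means were 50.9 ± 3.02 and 38.1 ± 5.29 CPM (SD, n = 3 each). The fitted log2 fold change was −0.42 (SE 0.10) and, with the block, −0.42 (SE 0.06), which put the level at 74.7% of LMB. Within pairs the log2 difference was −0.49, −0.49 and −0.30. By its blocked fold change SLC30A1 ranked 245th among the falls of the tested genes. These values led to its choice and are descriptive.

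Relative to the metallothioneins, SLC30A1 had 25.6, 25.8 and 24.4 counts per 100 metallothionein counts in LMB and 17.5, 18.4 and 22.3 in LMB+auxin. Among the SLC30A family (SLC30A1 to SLC30A10), it made up 10.7%, 11.2% and 12.2% of summed TPM in LMB and 7.39%, 8.09% and 9.47% in LMB+auxin. Both measures rest on the SLC30A1 counts for which the gene was picked, and neither set of groups overlapped.

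**Figure D3:**
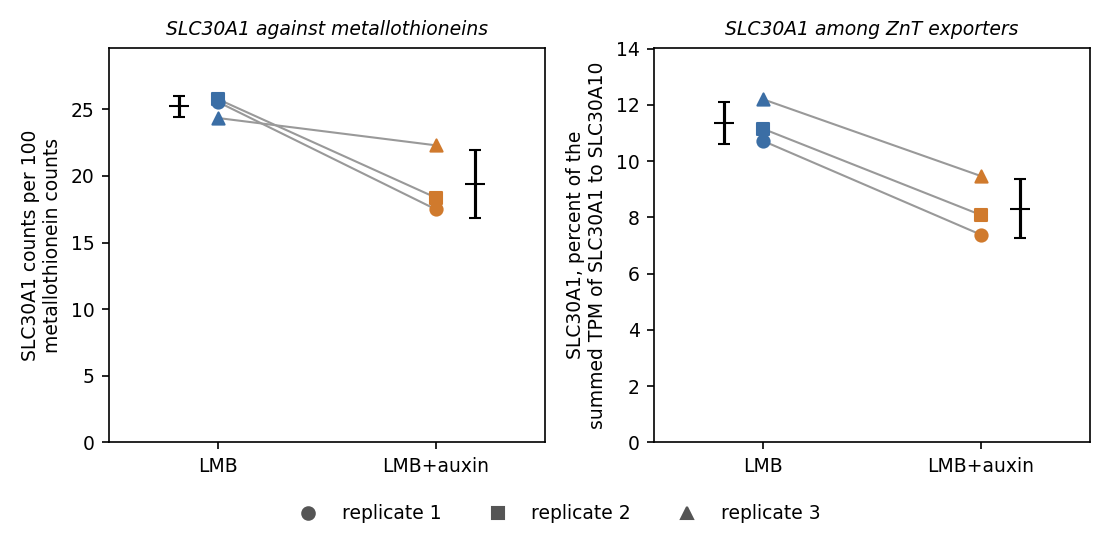
SLC30A1 counts per 100 metallothionein counts (left) and its percent of the summed TPM of SLC30A1 to SLC30A10 (right). Symbols are replicates, lines join libraries of the same number, and bars are the mean with SD (n = 3). All 3 LMB+auxin points lie below all 3 LMB points in both panels.

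MTF1, the sensor, had 16, 15.2 and 15.1 CPM in LMB and 16.8, 15.8 and 15.8 CPM in LMB+auxin. It was higher with auxin in 3 of 3 pairs, yet the groups overlapped. Its log2 fold change was 0.06 (SE 0.08, edgeR adjusted p = 0.957), and 0.06 with the block (95% interval −0.09 to 0.21, adjusted p = 0.680).

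MT2A, a widely expressed metallothionein, had 47.5, 50.8 and 59.9 CPM in LMB and 46.1, 48.6 and 52.0 CPM in LMB+auxin. It was lower in 3 of 3 pairs, and LMB+auxin replicate 3 lay above LMB replicates 1 and 2. The log2 fold change was −0.11 (SE 0.09, edgeR adjusted p = 0.954), and −0.11 with the block (SE 0.06, adjusted p = 0.262), with a 95% interval of −0.22 to 0.0024.

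MT1E, the most abundant metallothionein, had 119, 114 and 134 CPM in LMB and 127, 117 and 120 CPM in LMB+auxin. It was higher with auxin in 2 pairs and lower in 1. The log2 fold change was −0.01 (SE 0.08, edgeR adjusted p = 0.991), and the blocked 95% interval ran from −0.11 to 0.08.

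MT1X had 18.7, 24.9 and 24.7 CPM in LMB and 21.4, 24.3 and 22.4 CPM in LMB+auxin. LMB replicate 1 was the lowest library and the LMB+auxin values fell inside the range of LMB. The log2 fold change was −0.01 (SE 0.12, edgeR adjusted p = 0.997), with a blocked 95% interval of −0.13 to 0.13. The overlapping ENSG00000259827 had a log2 fold change of −0.04 (SE 0.13, adjusted p = 0.982).

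MT1F, the least abundant of the 4, had 4.08, 4.38 and 3.77 CPM in LMB and 2.26, 4.51 and 3.77 CPM in LMB+auxin. One library set its difference: LMB+auxin replicate 1 had 67 counts (exact two-sided Poisson 95% interval 51.9 to 85.1, counting error only), whereas the other 5 libraries had 118 to 137. The log2 fold change of −0.21 (SE 0.22, edgeR adjusted p = 0.954) became 0.02 without that library. With the block it was −0.22 (SE 0.13, adjusted p = 0.356).

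**Figure D4:**
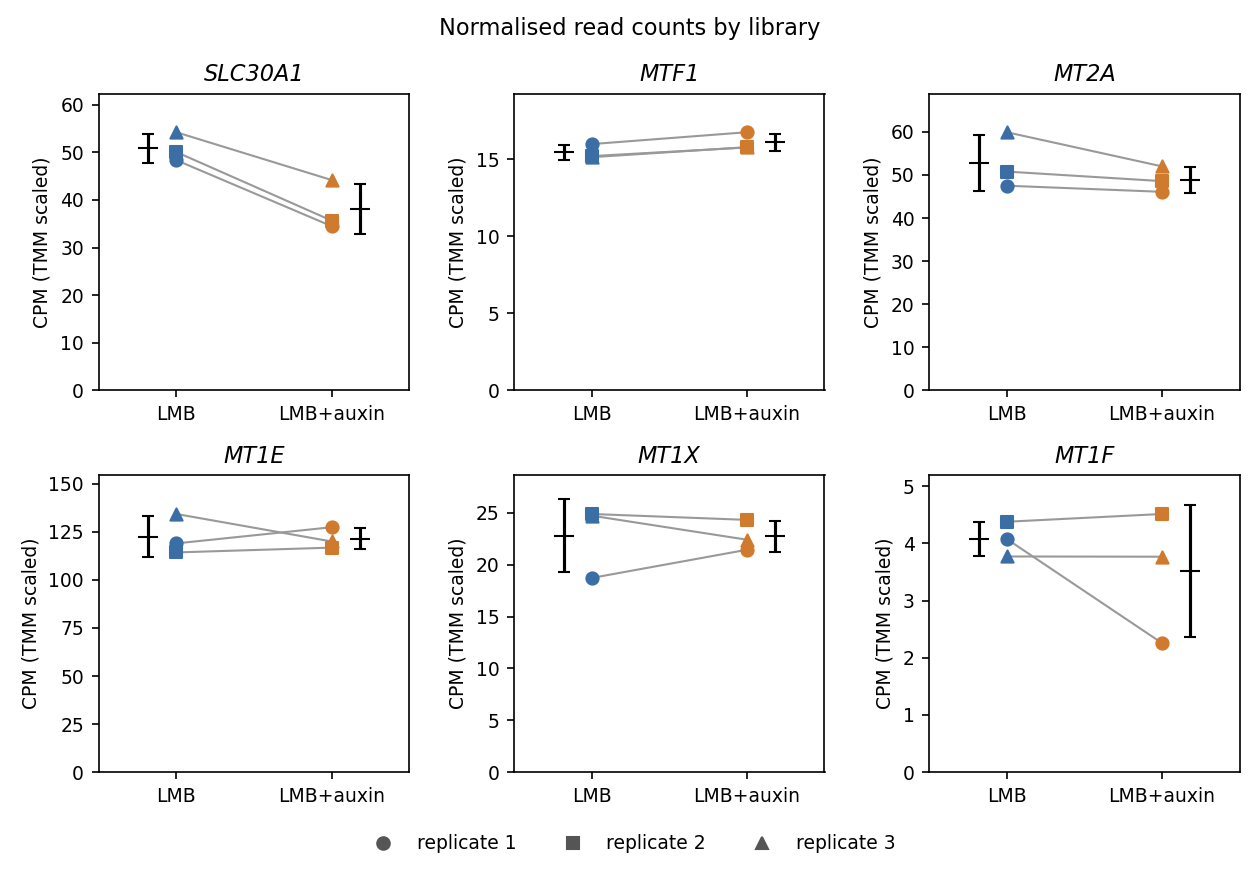
Normalised read counts (CPM) of the 6 tested members in LMB and LMB+auxin. Symbols are replicates, lines join libraries of the same number, and bars are the mean with SD (n = 3). Of these 6 members, SLC30A1, picked for its change, is the one whose groups do not overlap. The spread of MT1F in LMB+auxin comes from replicate 1 at 2.26 CPM.

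Replicate number took more genes past the thresholds than auxin did, though the measures are unlike. For replicate number it is the range over 3 numbers, and for auxin 1 difference, so a range passes the fold threshold more easily. With the replicate term, edgeR called 2432 genes (14.3%) by an adjusted p under 0.05 with a range between replicate numbers of at least 1.3-fold. Of the 5 tested members other than SLC30A1 1 was called, MT1F, with a range of 0.50 on the log2 scale (1.41-fold, adjusted p = 0.0408). Its range rests on LMB+auxin replicate 1 at 2.26 CPM, since LMB replicate 1 at 4.08 CPM lay between LMB replicates 2 and 3. DESeq2 and library size scaling did not call it (adjusted p = 0.503 and 0.0571). In edgeR the adjusted p was also under 0.05 for MT1X (range 0.29, adjusted p = 0.00809) and MT2A (0.26, adjusted p = 0.00438), at ranges below the fold threshold. The likelihood ratio test of DESeq2 gave adjusted p = 0.193 for MT1X and 0.0751 for MT2A. MT1E (0.14, adjusted p = 0.145) and MTF1 (0.08, adjusted p = 0.692) did not pass. SLC30A1 had a range of 0.26, given with no test, and the median over all tested genes was 0.21. For MT2A and SLC30A1, replicate 3 was the highest library of each group.

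Correlations between members across the 6 libraries ran in both directions. On log2 CPM, Pearson's r was 0.71 between MT2A and SLC30A1 and 0.56 between MT2A and MT1X, but 0.05 between MT1E and MT1X and −0.55 between MT1E and MT1F. MTF1 ran against SLC30A1 (r = −0.77), MT2A (r = −0.78), MT1F (r = −0.76) and MT1X (r = −0.64), but not against MT1E (r = 0.07). These r values are descriptions over 6 libraries that share treatment groups and replicate numbers.

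The rest of the zinc transporter system was compared from lists of gene families. Of the 9 other SLC30A genes, which mostly carry zinc out of the cytoplasm into vesicles or out of the cell, 6 were tested and none was called in either edgeR fit, by DESeq2 or by limma-voom, with unadjusted p under 0.05 in 0 genes without the block and 1 with it. Fitted changes were higher in 5 and lower in 1, with a median log2 fold change of 0.08 beside −0.0027 over all tested genes. SLC30A9, the most abundant, had 141 ± 1.73 and 146 ± 4.0 CPM in the groups without and with auxin (log2 fold change 0.05, adjusted p = 0.957). Its groups did not overlap, with LMB+auxin higher, and it was the 1 gene of these 6 to separate. Over all tested genes 4.89% separated upward and 6.63% downward. SLC30A5, a transporter of the early secretory pathway, had 84.5 ± 4.36 and 92.3 ± 5.12 CPM (0.13, edgeR adjusted p = 0.123 with the block). It was higher in all 3 pairs, as were SLC30A4, SLC30A6 and SLC30A9.

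Of the 14 SLC39A genes, the ZIP family that brings zinc into the cytoplasm, 12 were tested and none was called in any of these fits, with unadjusted p under 0.05 in 0 genes without the block and 3 with it. Fitted changes were higher in 7 and lower in 5, with a median log2 fold change of 0.04. The groups did not overlap in 2 genes that were lower with auxin (SLC39A3 and SLC39A4) and 2 that were higher (SLC39A8 and SLC39A9). Over all tested genes 6.63% separated downward and 4.89% upward. The most abundant were SLC39A6, at 264 ± 6.73 and 274 ± 11.1 CPM in the groups without and with auxin (log2 fold change 0.05), and SLC39A14, at 243 ± 10.6 and 260 ± 17.2 CPM (0.10, edgeR adjusted p = 0.193 with the block). SLC39A13, named after its values were seen, differed by −0.24 on the log2 scale in the blocked fit (adjusted p = 0.0444), which is under the fold threshold, and its groups overlapped. DESeq2 with the block gave SLC39A4 and SLC39A12 no adjusted p.

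**Figure D5:**
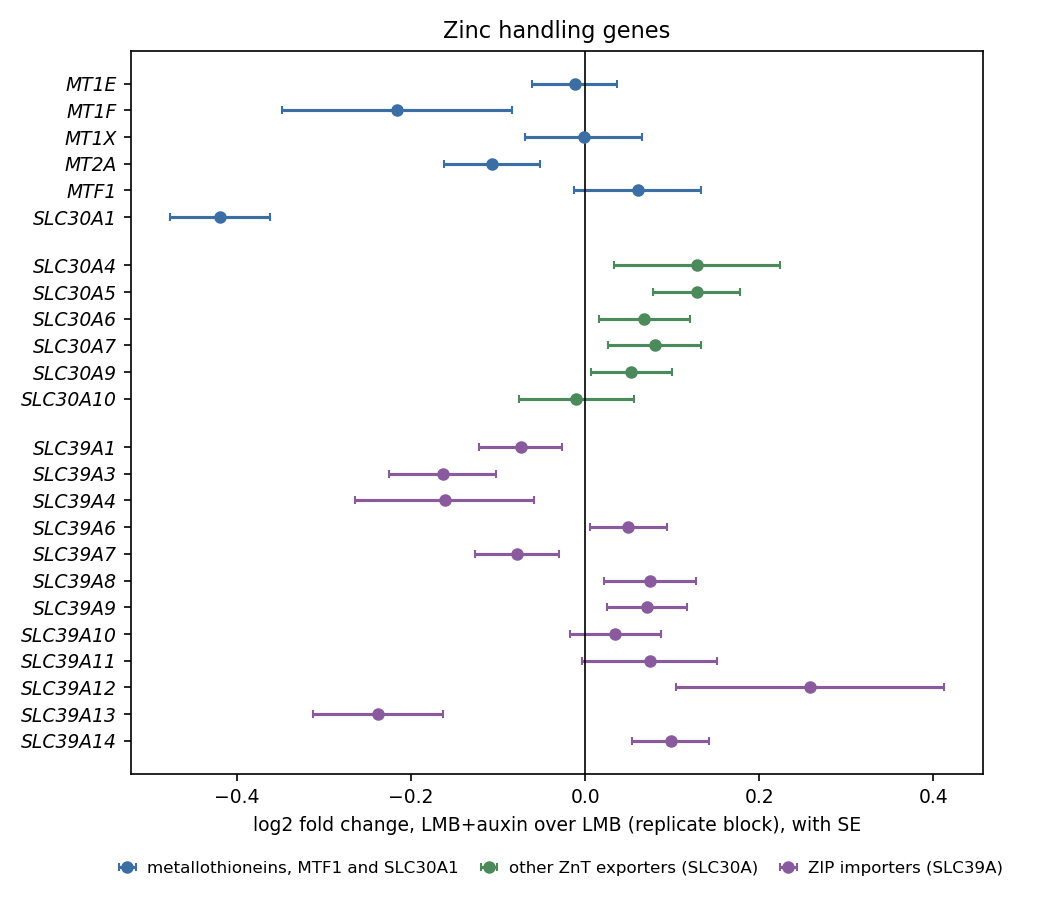
Log2 fold change (LMB+auxin over LMB, edgeR with the replicate block) with its SE for the tested members, the other SLC30A exporters and the SLC39A importers. SLC30A1, picked for its change, lies at −0.42, and the tested genes of the other SLC30A list lie between −0.01 and 0.13.

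Genes for copper, metal stress and glucocorticoids, which share signals with the metallothioneins, were counted in the same way. All 8 matched copper genes were tested and none was called in any fit or had an unadjusted p under 0.05 in either edgeR fit (median log2 fold change 0.03). The copper importer SLC31A1 had 81.2 ± 4.15 and 84.7 ± 7.10 CPM, and SCO1, a chaperone of cytochrome oxidase assembly, 57.2 and 60.9 CPM. Of 9 metal-inducible stress genes none was called, with unadjusted p under 0.05 in 0 genes without the block and 2 with it (median −0.02). Their most abundant members were TXNRD1, thioredoxin reductase, at 532 ± 64.2 and 560 ± 74.6 CPM, and the heat shock cochaperone DNAJB1 at 97.2 ± 12.6 and 88.0 ± 11.8 CPM. The heme oxygenase HMOX1, named after its values were seen as were HSPA1B and SGK1 here, had 6.67 and 6.55 CPM. HSPA1B, an inducible heat shock protein, differed by −0.22 on the log2 scale with the block (adjusted p = 0.0140), under the fold threshold. HSPA1A, for which DESeq2 with the block gave no adjusted p, and HSPA1B are near-identical copies, so their counts are uncertain.

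Of 6 glucocorticoid receptor targets 5 were tested and none was called, with unadjusted p under 0.05 in 1 gene without the block and 2 with it (median −0.02). FKBP5, a cochaperone of the receptor, had 50.8 ± 6.80 and 57.3 ± 5.48 CPM (log2 fold change 0.18 with the block, adjusted p = 0.0393, below the fold threshold), and KLF9, a transcription factor, 31.7 and 29.2 CPM. The kinase SGK1 had a log2 fold change of 0.31 with the block (adjusted p = 0.00577), below the fold threshold. The adjusted p of SGK1, FKBP5, HSPA1B and SLC39A13 was under 0.05 in the blocked edgeR fit, and no gene of these lists had one under 0.05 in edgeR without the block, in DESeq2 with or without it, or in limma-voom.

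Neighbouring genes were listed to describe the regions. The 3 nearest tested protein-coding genes on each side of SLC30A1, of MTF1 and of the metallothionein cluster made 18 genes, and none was called in either edgeR fit, by DESeq2 or by limma-voom. Over all tested genes edgeR called 0.00589% without the block and 1.18% with it. At such shares, 18 genes without a call cannot show that a region was unchanged. The unadjusted p was under 0.05 for 1 gene in the fit without the block and for 3 genes with it, and DESeq2 with the block gave SERTAD4 no adjusted p. Nearest to SLC30A1 among the tested genes were SERTAD4, RCOR3 and TRAF5 on one side and NEK2, LPGAT1 and INTS7 on the other. Their log2 fold changes ran from −0.03 (NEK2) to 0.17 (SERTAD4). SERTAD4 lies at 210232796 to 210246631, far from SLC30A1 at 211571568 to 211579161. Beside MTF1, INPP5B had a log2 fold change of 0.17 (adjusted p = 0.0892 with the block) without overlap between the groups, and MANEAL, YRDC, C1orf122, SF3A3 and FHL3 overlapped. The genes beside the cluster included NUDT21 and OGFOD1 on one side and NUP93, HERPUD1 and NLRC5 on the other. NUP93, which encodes a nucleoporin of the inner ring, had 143 and 142 CPM.

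Likeness to SLC30A1 was ranked by Pearson's r of log2 CPM over the 6 libraries among 9554 protein-coding genes of at least 10 CPM, and 51 genes had r above 0.9. Among the most similar were MAP3K6 (r = 0.98), ABCB9 (0.97) and STK35 (0.97). Their blocked changes with auxin were −10.4% to −7.25%, beside −25.3% for SLC30A1; the direction follows from the choice by likeness and is no test. Among the genes most like the summed metallothionein CPM were RASAL2 (r = 0.96), FAM209A (0.95) and CHCHD2 (0.94), and 14 genes had r above 0.9. Their groups overlapped, with LMB replicate 3 the highest library for each.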

How the data were processed

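RNA-seq was deposited for 6 libraries as 1 table of raw counts per Ensembl gene. The authors removed ribosomal RNA with Ribo-Zero Gold and sequenced paired-end total RNA libraries from 3 independent cultures per group. Per the labels, reads were processed with CASAVA 1.8.2, STAR 2.6.1c and featureCounts 1.5.2 on GRCh38. How strand and multi-mapped reads were handled is not given in the sources used here. Total counts were 28261903 to 35992425, and all 37 mitochondrial genes were listed at 0.

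Symbols, coordinates and transcript lengths came from GENCODE 44 (GRCh38), which matched 98.1% of the identifiers. Counts were scaled by TMM, kept at CPM above 1 in at least 3 libraries, and compared by quasi-likelihood F tests in edgeR 4.0.16 under R 4.3.3 (Benjamini-Hochberg adjusted p under 0.05 and fold change of at least 1.3). The script was tested on simulated data. DESeq2 1.42.0 and limma 3.58.1 were alternatives, as were other scalings, no filter and leaving out libraries. Same-numbered libraries of the groups deviated together (r = 0.53, 0.69 and 0.27 over genes), so the numbers, shared in the labels, were taken as pairs and a blocked fit was run. By these r values the pairing is weakest for replicate 3. For libraries of unlike number r ran from −0.57 to 0.15. Deviations were taken from the mean of each group, so a positive r for the same number lowers the others. The values for unlike numbers are therefore no separate evidence for the pairing. Correlations used log2(CPM + 0.1).

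The members and gene lists were chosen with earlier results of these data known. Named were all members, the 2 most abundant genes of each list, called list genes, the 5 most similar genes and the 3 neighbours per side. SCO2 was not matched by symbol. Some genes that these rules name are not reported here.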

Additional observations from a re-analysis of the deposited data

How the results depend on the processing

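In the auxin contrast, the number of called genes depended on the fit: 1 gene without the block (1 with the other size factors of DESeq2, upper quartile scaling or limma-voom), 0 with library size alone, 39 without the filter on low counts (39271 genes tested), 11 with DESeq2, 31 with DESeq2 and the replicate block and 201 with the replicate block in edgeR. Leaving out single libraries gave 0 to 5 calls: 5 without the second LMB+auxin library, 2 without the second LMB library and 0 without any of the other 4. Leaving out replicate 1, 2 or 3 of both groups under the replicate block gave 133, 158 and 134 calls. In all 17 alternatives, 0 of the 5 tested members other than SLC30A1 were called (with DESeq2 and the replicate block 4 had an adjusted p, and MT1F had none), so the pairing changed no call among them. The replicate term called 2432 genes in edgeR and 1140 with the likelihood ratio test of DESeq2. The cause of these differences was not tested.

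The log2 fold change of SLC30A1 ran from −0.53 to −0.35 over the 17 alternatives. SLC30A1 was picked for this change in these same libraries, so its steady direction is no test. The log2 fold change of MT2A ran from −0.18 to −0.01 and that of MTF1 from 0.03 to 0.09, each in 1 direction. Those of MT1E (−0.07 to 0.07), MT1F (−0.43 to 0.02) and MT1X (−0.13 to 0.08) crossed 0. Leaving out single libraries moved MT1E between −0.054 and 0.0574, and it turned positive without replicate 3 of either group or without replicate 2 of LMB+auxin and, under the block, without replicate 3 (0.0711). MT1F ran from −0.4279 to 0.0226 and turned positive without LMB+auxin replicate 1 and, under the block, without replicate 1 (0.0213). MT1X turned positive with the size factors of DESeq2 (0.0011), with its Wald test (0.0014, and 0.0099 with the replicate block), without 4 of the single libraries (range −0.1268 to 0.0684 over all 6) and, under the block, without replicate 2 (0.0214) or 3 (0.0809). Of 32 group means in CPM, 0 moved by more than 1 SD under another scaling, whereas 10 of 16 in TPM did with total exonic length. Depth limits MT1G and MT1M, which had at most 1 count per library, and MT1F, which had 67 to 137.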
